A study of Homo sapiens with 13 samples.

Results

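The genes described here are 9 components and regulators of the complement system, taken by symbol from a list of C3, CFB, C1R, C1S, CFI, SERPING1, CD46, CD55 and CD59. All 9 were found among the 62703 genes counted in each of 2 tables, and all 9 passed the filter on low counts in both cell lines. They comprise 4 secreted components, 2 secreted inhibitors and 3 membrane inhibitors. The study sequenced poly-A RNA of 2 human ovarian carcinoma lines, SKOV3 and OVCAR3, to ask how the chromatin protein RSF1 and its UAB region, which binds ubiquitinated histone H2A, bear on gene expression. In SKOV3 the groups were cells with a control vector, cells overexpressing RSF1 and cells overexpressing RSF1delUAB, a form without the UAB region, with 3 libraries each and no treatment recorded. In OVCAR3 the groups were cells with a scramble control and cells expressing a UAB peptide, with 2 libraries each. All 4 OVCAR3 libraries came from cells given doxycycline at 2000 ng/mL for 6 days, so that line has no group without the drug. Which promoters drive the constructs, and whether cells were single clones or pools, is not given in the labels.

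Complement is a cascade of plasma proteases and binding proteins that tags cells for uptake and can pierce their membranes. The classical route starts when the proteases C1r and C1s are activated on bound antibody, the alternative route when factor B joins deposited C3, and both lead to the cleavage of C3, the central protein of the system. Host cells hold the cascade in check with the soluble factor I and C1 inhibitor and with the membrane proteins CD46, CD55 and CD59. The liver makes most plasma complement, and many epithelial and tumour cells also make components and carry the membrane inhibitors at high levels.

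Libraries of SKOV3 held 15194678 to 18748009 counts and those of OVCAR3 18160558 to 24026993. RSF1 itself was at 42.2 to 47.5 CPM, a count scaled to library size by TMM within each line, in the SKOV3 control libraries, 631 to 775 with RSF1 and 459 to 509 with RSF1delUAB. In OVCAR3, where the constructs are peptides, RSF1 was at 564 to 707 CPM in the scrambled group and 586 to 787 in the UAB group, a level that does not check those labels. The summed level of 9 ovarian carcinoma markers was 3616 to 9910.0 CPM in SKOV3 and 7643 to 8523 CPM in OVCAR3. Its lowest values in SKOV3 were those of the RSF1 libraries. ERBB2, the gene this line is known to carry in many copies, made up most of the sum in the controls. It stood at 2139 to 2816 CPM with RSF1 against 8031 to 8723 in the controls. The list as a whole did not fall with RSF1. Of 8 markers tested against the control, 4 were higher at an edgeR adjusted p under 0.05, 2 lower (ERBB2 and PAX8) and 2 neither. Among all tested genes 34.3% were higher and 32.9% lower. MUC16, the CA-125 antigen, had 0 to 3 counts in every SKOV3 library and 206 to 1094 CPM in OVCAR3. Whether the libraries of a group are separate cultures is not in the labels, and the p-values therefore measure only how these libraries spread, which may be technical. In bulk RNA, fewer cells making a transcript and less of it per cell cannot be told apart.

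Promoter sequences are shown for 4 genes, CFB and C1R because they rose with both forms of RSF1, and CFI and CD55 as an inhibitor that was lower and an inhibitor that was higher with full-length RSF1 than with RSF1delUAB. The choice was limited to the 6 genes with an entry in the promoter table. Each is the 250 bases before a RefSeq transcription start (GRCh38.p14), written 5′ to 3′ on the strand of the gene, with motif matches in capitals. CFB is at chr6:31945845-31946094 on the plus strand, C1R at chr12:7091894-7092143 on the minus strand, CFI at chr4:109802000-109802249 on the minus strand and CD55 at chr1:207321428-207321677 on the plus strand. C1R has a further start, whose window at chr12:7092446-7092695 held no match and is not printed.
CFB: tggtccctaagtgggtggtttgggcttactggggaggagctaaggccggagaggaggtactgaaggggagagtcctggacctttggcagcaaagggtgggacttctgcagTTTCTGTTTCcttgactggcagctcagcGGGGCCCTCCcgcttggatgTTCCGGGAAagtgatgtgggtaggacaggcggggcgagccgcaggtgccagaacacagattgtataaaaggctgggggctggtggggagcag
C1R: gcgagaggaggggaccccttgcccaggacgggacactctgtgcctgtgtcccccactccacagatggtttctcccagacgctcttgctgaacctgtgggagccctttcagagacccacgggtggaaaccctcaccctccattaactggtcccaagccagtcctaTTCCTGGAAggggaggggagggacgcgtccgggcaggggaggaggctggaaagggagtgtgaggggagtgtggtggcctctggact
CFI: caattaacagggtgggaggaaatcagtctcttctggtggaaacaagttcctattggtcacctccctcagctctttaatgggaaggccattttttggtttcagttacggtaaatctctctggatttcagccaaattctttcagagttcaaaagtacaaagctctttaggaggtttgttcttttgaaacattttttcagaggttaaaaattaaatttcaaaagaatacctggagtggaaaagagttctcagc
CD55: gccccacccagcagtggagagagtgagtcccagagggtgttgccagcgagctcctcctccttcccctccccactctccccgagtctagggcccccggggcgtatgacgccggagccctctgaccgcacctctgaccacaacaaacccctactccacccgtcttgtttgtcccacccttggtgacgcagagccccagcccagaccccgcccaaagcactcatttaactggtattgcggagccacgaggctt

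Motifs of 4 factor families were searched on both strands: NF-kappaB, STAT (TTCNNNGAA), IRF (GAAA, any 2 bases and GAAA again) and AP-1 (TGANTCA). The CFB window held an IRF match on the minus strand, TTTCTGTTTC, 140 bases before the start, an NF-kappaB match, GGGGCCCTCC, 112 bases before it and a STAT match, TTCCGGGAA, 92 bases before it. The C1R window held a STAT match, TTCCTGGAA, 86 bases before its start, and the window at the other C1R start in the table held none of the 4 motifs. No match was present in the CFI and CD55 windows or in either CD46 window. At CD59, 2 overlapping windows of 4 held the same STAT match, TTCTCAGAA, and another held 2 AP-1 matches. Among 35116 RefSeq promoter windows of this length, 9.96% held an NF-kappaB match, 6.57% a STAT match, 3.02% an IRF match and 6.57% an AP-1 match. A match is a description of the letters and not a binding site. C3, C1S and SERPING1 are named without a sequence.

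Every secreted gene of the list was higher in SKOV3 with either form of RSF1 than with the control vector, while the membrane inhibitors moved little or fell. C3, the protein on which all routes of complement converge, rose the most with full-length RSF1, by 19.8-fold, and the C1 inhibitor gene SERPING1 rose the most with RSF1delUAB, by 25.8-fold. With RSF1, 6 of the 9 genes were higher at an adjusted p under 0.05, 1 was lower and 2 were not called, against a background in which 67.3% of all 16735 tested genes were called (34.3% higher and 32.9% lower). With RSF1delUAB, 6 were higher, 2 lower and 1 not called, against 66.6% of all genes (34.5% higher and 32.1% lower). Because a call was so common, sizes are given beside the calls. The list was chosen with earlier results of these data known, so its shares here and below are a description and not a test. All 6 secreted genes were called and at least 2-fold higher with RSF1, as were 16.2% of all genes, and all 6 with RSF1delUAB, as were 15.7% of all genes. CFI, at 2.10-fold with RSF1, came under 2-fold when 1 library was left out, with log2 values of 0.77 without control replicate 2, 0.99 without control replicate 1 and 0.97 without RSF1 replicate 1. No member was at least 2-fold lower, against 10.2% of all genes with RSF1 and 9.88% with RSF1delUAB. The median log2 fold change of the secreted genes was 3.19 with RSF1 and 3.24 with RSF1delUAB, beside medians of 0.02 over all tested genes in both comparisons. These 2 comparisons share the control libraries, so they are not independent of each other.

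Among the secreted components, C3 (ENSG00000125730, chromosome 19, 6677704 to 6730562, minus strand) stood at 118, 115 and 101 CPM in the control libraries, 1962, 2224 and 2449 CPM with RSF1 and 987, 1022 and 1034 CPM with RSF1delUAB. The 3 groups did not overlap, and the RSF1 libraries were the highest. The share of all genes whose SKOV3 groups do not overlap is not given. A lack of overlap, here and for the genes below, is therefore only a description. Its log2 fold change was 4.31 ± 0.0836 (SE) with RSF1 (edgeR quasi-likelihood test with Benjamini-Hochberg adjustment, adjusted p = 4.42e-19), and 2.64% of tested genes had a larger absolute change. With RSF1delUAB it was 3.19 ± 0.0798, a 9.10-fold rise (edgeR adjusted p = 1.61e-17). C3 overlaps GPR108 on the same strand in the deposited annotation, a gene with at most 1223 counts in a SKOV3 library, where C3 had 1569 to 1779 counts in the controls and 30088 to 38955 with RSF1.

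CFB (ENSG00000243649, chromosome 6, 31945650 to 31952086, plus strand), factor B, whose cleaved form is the protease of the alternative C3 convertase, stood at 1.52, 1.19 and 1.36 CPM in the controls, 7.30, 9.15 and 7.92 with RSF1 and 5.53, 5.83 and 6.53 with RSF1delUAB. All construct libraries lay above all controls. The rise was 5.96-fold with RSF1 (log2 2.57 ± 0.196, edgeR adjusted p = 4.38e-10) and 4.37-fold with RSF1delUAB (log2 2.13 ± 0.201, edgeR adjusted p = 1.13e-08). CFB overlaps C2 on the same strand, so reads near their border could be assigned to either.

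C1R and C1S, the paired proteases that start the classical route, are neighbours on chromosome 12 (C1R, ENSG00000159403, 7080214 to 7092540, minus strand, and C1S, ENSG00000182326, 6988259 to 7071032, plus strand). C1R stood at 4.83, 4.58 and 3.30 CPM in the controls, 57.6, 47.4 and 49.1 with RSF1 and 55.0, 49.5 and 53.0 with RSF1delUAB. For C1S the levels were 7.01, 7.37 and 6.33 CPM in the controls, 50.5, 45.1 and 47.8 with RSF1 and 50.5, 53.9 and 48.3 with RSF1delUAB. In both genes every construct library lay above every control, and the libraries of the 2 constructs overlapped. C1R rose 12.1-fold with RSF1 (log2 3.60 ± 0.125, edgeR adjusted p = 2.04e-15) and 12.4-fold with RSF1delUAB (log2 3.63 ± 0.124, edgeR adjusted p = 1.53e-15). The rise of C1S was 6.92-fold with RSF1 (log2 2.79 ± 0.0982, edgeR adjusted p = 2.62e-15) and 7.37-fold with RSF1delUAB (log2 2.88 ± 0.0975, edgeR adjusted p = 1.38e-15). C1R overlaps C1RL on the same strand and C1S overlaps LPCAT3 on the other strand, and whether counting used strand is not given in the labels.

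Both secreted inhibitors rose from very low control levels. CFI (ENSG00000205403, chromosome 4, 109731008 to 109802150, minus strand), factor I, which cuts C3b and C4b with the help of cofactors, stood at 0.794, 0.464 and 1.42 CPM in the controls, from 12, 7 and 22 counts. It reached 2.15, 1.46 and 2.07 CPM with RSF1 and 9.62, 8.66 and 8.44 CPM with RSF1delUAB. Control replicate 3, at 1.42 CPM, lay just under the lowest RSF1 library, at 1.46, whereas the RSF1delUAB libraries stood well above all others. The rise of CFI was 2.10-fold with RSF1 (log2 1.07 ± 0.321, edgeR adjusted p = 0.00601) and 9.86-fold with RSF1delUAB (log2 3.30 ± 0.259, edgeR adjusted p = 6.83e-10).

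SERPING1 (ENSG00000149131, chromosome 11, 57597387 to 57619171, plus strand), the C1 inhibitor, which blocks C1r and C1s, stood at 0.728, 0.664 and 0.194 CPM in the controls, from 11, 10 and 3 counts. With RSF1 it was at 7.30, 6.10 and 9.18 CPM and with RSF1delUAB at 14.3, 13.7 and 13.2 CPM. The 3 groups did not overlap. It rose 14.1-fold with RSF1 (log2 3.82 ± 0.276, edgeR adjusted p = 2.00e-10) and 25.8-fold with RSF1delUAB (log2 4.69 ± 0.254, edgeR adjusted p = 2.38e-12).

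**Figure D1:**
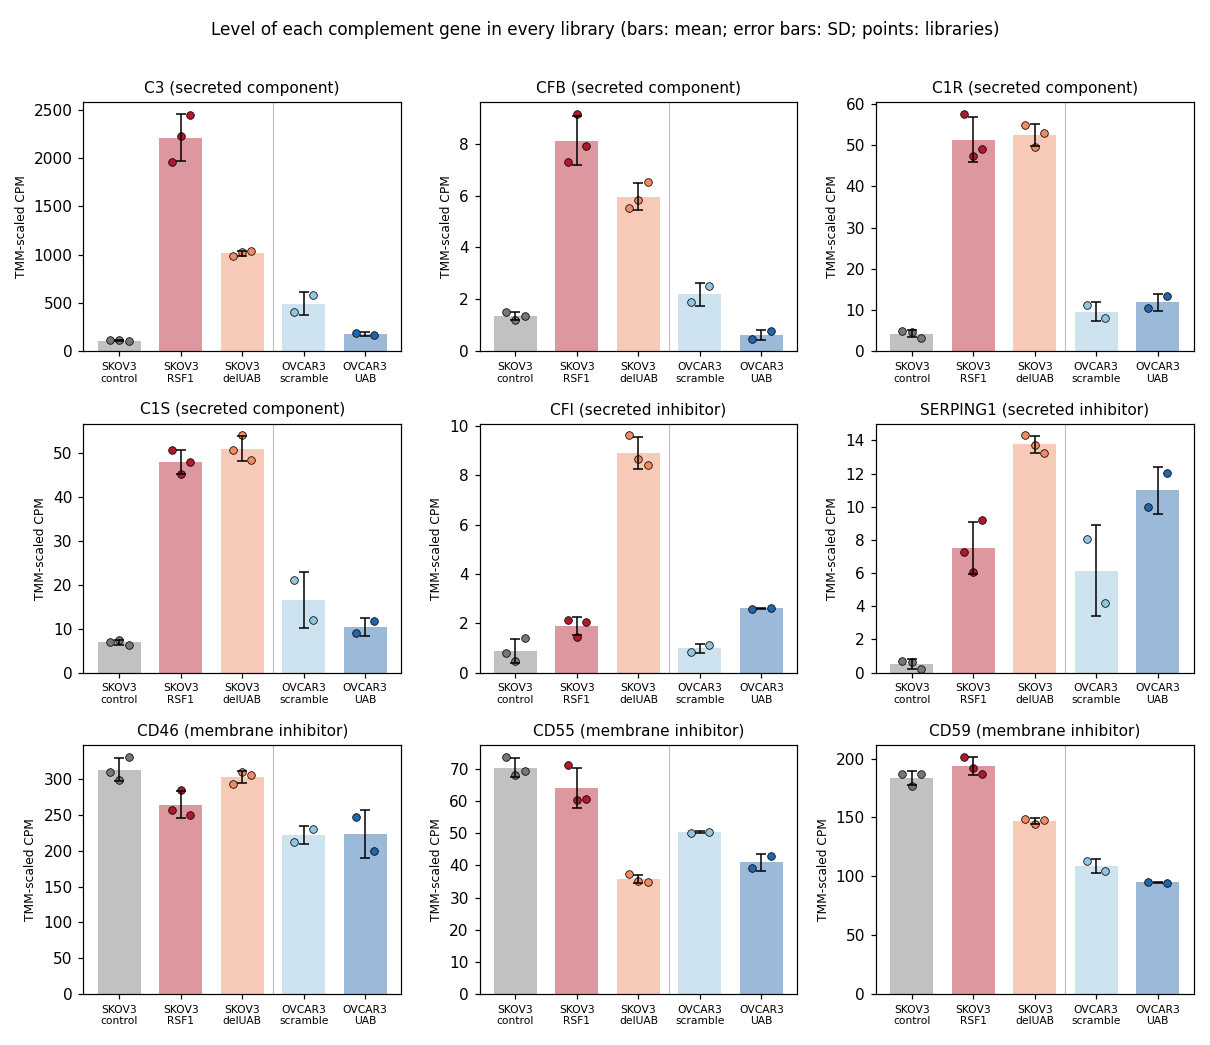
TMM-scaled CPM of the 9 genes (vertical axes, linear, a scale of its own in each panel) in the 5 groups, with points for libraries, bars for means and error bars for SD (3 libraries per SKOV3 group, 2 per OVCAR3 group), and a grey line between the separately scaled cell lines. In SKOV3 the 6 secreted genes rose from the control to both constructs, while CD55 and CD59 were lowest with RSF1delUAB.

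The membrane inhibitors differed from the secreted genes in size and direction. CD46 (ENSG00000117335, chromosome 1, 207752037 to 207795513, plus strand), the cofactor with which factor I cuts C3b on host cells, stood at 309.6, 299 and 331 CPM in the controls, 258, 285 and 249.6 with RSF1 and 293, 310.0 and 306 with RSF1delUAB. The RSF1 libraries lay below all others. CD46 fell by 0.25 ± 0.0657 on the log2 scale with RSF1, a level 1.19-fold lower (edgeR adjusted p = 0.00256). It was not called with RSF1delUAB (log2 fold change -0.05, 95% interval -0.19 to 0.09, edgeR adjusted p = 0.524).

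CD55 (ENSG00000196352, chromosome 1, 207321519 to 207386804, plus strand), the decay-accelerating factor that takes C3 convertases apart, stood at 73.8, 68.1 and 69.4 CPM in the controls, 71.1, 60.3 and 60.7 with RSF1 and 37.2, 35.3 and 34.9 with RSF1delUAB. The RSF1delUAB libraries were apart from the other groups, which overlapped through RSF1 replicate 1. With RSF1delUAB CD55 was 1.97-fold lower (log2 fold change -0.98 ± 0.0796, edgeR adjusted p = 1.27e-09). With RSF1 it was not called (log2 fold change -0.14, 95% interval -0.30 to 0.02, edgeR adjusted p = 0.123), and without RSF1 replicate 1 the value was -0.22 with an edgeR adjusted p of 0.00512.

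CD59 (ENSG00000085063, chromosome 11, 33703010 to 33736479, minus strand), which stops the membrane attack complex from closing, stood at 187, 177 and 187 CPM in the controls, 202, 192 and 187 with RSF1 and 149, 144 and 147 with RSF1delUAB. The RSF1delUAB libraries were again the lowest. CD59 was 1.25-fold lower with RSF1delUAB (log2 fold change -0.32 ± 0.0615, edgeR adjusted p = 0.000114). With RSF1 it was not called (log2 fold change 0.08, 95% interval -0.05 to 0.20, edgeR adjusted p = 0.282), and upper-quartile scaling gave 0.16 with an edgeR adjusted p of 0.0298.

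**Figure D2:**
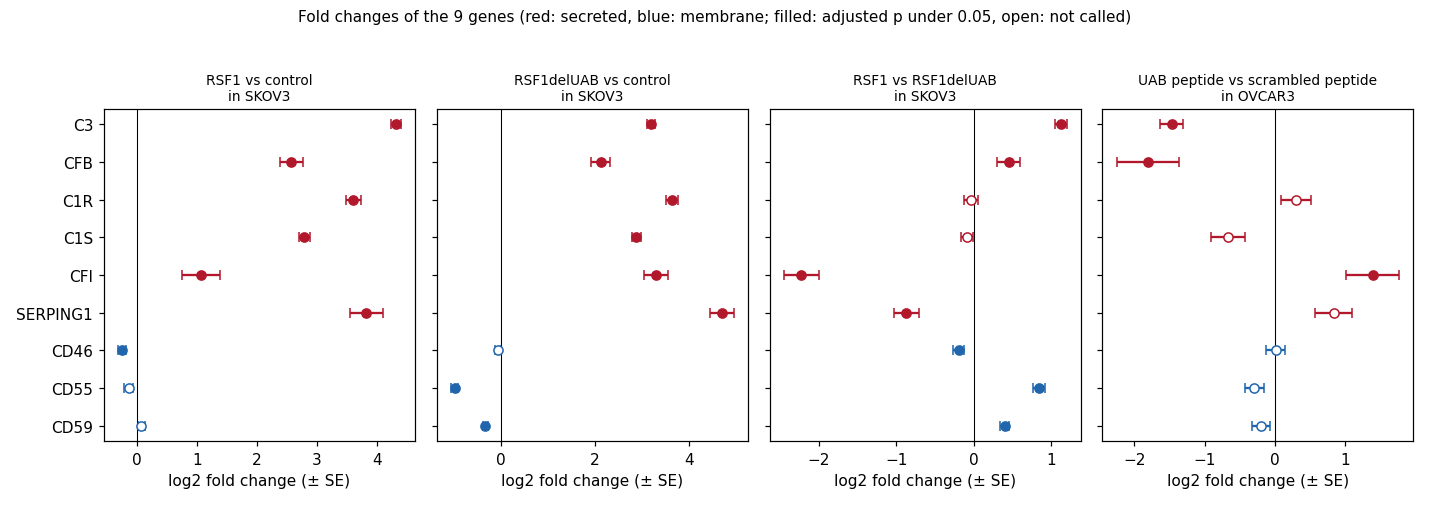
Log2 fold changes (horizontal axes) of the 9 genes in 4 comparisons, with bars for SE, red for secreted and blue for membrane genes, and filled points for an edgeR adjusted p under 0.05. In SKOV3 the 6 secreted genes lie right of 0 against the control in both constructs, and CFI differs most between the constructs, at -2.23.

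Most of these genes stood at different levels with full-length RSF1 and with RSF1delUAB, in both directions. RSF1 itself was also higher in the full-length group, at 631 to 775 CPM against 459 to 509. Loss of the UAB region, the amount of RSF1 and the origin of the cells therefore cannot be told apart. C3 was higher with the full-length form, CFI and SERPING1 were lower, and CD55 and CD59 were higher. Of the 9 genes, 4 were higher with RSF1, 3 were lower and 2 were not called, while 38.6% of all tested genes were called (18.5% higher and 20.2% lower). C3 was at least 2-fold higher and CFI at least 2-fold lower, as were 4.66% and 4.18% of all genes. The median over the 9 was -0.03, beside 0.00 over all tested genes.

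Within the secreted components, C3 was 2.18-fold higher with RSF1 than with RSF1delUAB (log2 1.12 ± 0.0731, edgeR adjusted p = 1.87e-10). CFB was 1.36-fold higher (log2 0.45 ± 0.153, edgeR adjusted p = 0.0256), a call that was lost with DESeq2 (adjusted p = 0.0845), with no count filter (0.0521), without RSF1 replicate 2 (0.113) and without RSF1delUAB replicate 1 (0.0955) or 2 (0.0702). C1R and C1S were not called, with log2 fold changes of -0.03 (95% interval -0.22 to 0.16, edgeR adjusted p = 0.816) and -0.09 (95% interval -0.26 to 0.07, edgeR adjusted p = 0.391). Differences within those intervals are not excluded, so an equal level of the 2 proteases with both constructs is not shown.

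The soluble inhibitors were both lower with full-length RSF1. CFI was 4.69-fold lower (log2 -2.23 ± 0.226, edgeR adjusted p = 1.31e-07), and 2.18% of tested genes had a larger absolute difference. SERPING1 was 1.83-fold lower (log2 -0.87 ± 0.162, edgeR adjusted p = 0.000228). Of the membrane inhibitors, CD55 was 1.79-fold higher (log2 0.84 ± 0.0798, edgeR adjusted p = 5.35e-08) and CD59 1.32-fold higher (log2 0.40 ± 0.0614, edgeR adjusted p = 2.94e-05). CD46 was 1.15-fold lower (log2 -0.20 ± 0.0656, edgeR adjusted p = 0.0218), a call lost with upper-quartile scaling (adjusted p 0.0599), with these 2 groups fitted alone (0.0536), without RSF1 replicate 3 (0.0869) and without RSF1delUAB replicate 2 (0.0797) or 3 (0.0779).

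In OVCAR3 the UAB peptide went with less C3 and CFB and more CFI than the scrambled peptide. C3 was 2.77-fold lower, CFB 3.50-fold lower and CFI 2.63-fold higher. The other 6 genes were not called, among them all 3 membrane inhibitors. The 3 called genes of 9 stand against 10.9% of 18359 tested genes (5.45% higher and 5.46% lower). All 3 changed at least 2-fold, as did 2.55% of all genes upward and 2.51% downward. Over the 9 genes the median log2 fold change was -0.19, beside 0.01 over all tested genes.

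C3 stood at 407 and 579.8 CPM in the scrambled libraries and at 191 and 164 CPM with the UAB peptide. The groups did not overlap, and the fall was 1.47 ± 0.166 on the log2 scale (log2 fold change -1.47, edgeR adjusted p = 4.93e-05). It passed the threshold in all 13 alternatives run, with values from -1.71 to -1.20, among them refits that leave 1 library in a group. CFB stood at 1.88 and 2.51 CPM against 0.490 and 0.764, from 44, 58, 10 and 14 counts, so its groups did not overlap either. Its log2 fold change was -1.81 ± 0.448 (edgeR adjusted p = 0.0179), and the call was lost with DESeq2 (adjusted p 0.0634). It was also lost without scrambled replicate 2 and without UAB replicate 1, refits that leave 1 library in a group.

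C1R stood at 11.2 and 7.99 CPM in the scrambled libraries and 10.4 and 13.4 with the UAB peptide, overlapping groups with a log2 fold change of 0.31 (95% interval -0.15 to 0.76, edgeR adjusted p = 0.406). C1S, at 21.0 and 11.9 CPM against 8.97 and 11.7, had both UAB libraries below both scrambled ones by a narrow margin. It was not called (log2 fold change -0.67 ± 0.241, edgeR adjusted p = 0.0925). It was called with no count filter (edgeR adjusted p 0.0114) and with a block of crossed replicate numbers chosen after seeing the data. Over 13 alternatives its values ran from -1.02 to -0.21, among them refits that leave 1 library in a group.

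CFI stood at 0.855 and 1.12 CPM against 2.60 and 2.62 CPM, from 20, 26, 53 and 48 counts. The groups did not overlap, and the log2 fold change was 1.39 ± 0.379 (edgeR adjusted p = 0.0288), a call lost with DESeq2 (adjusted p 0.111). It was also lost without scrambled replicate 1 and without UAB replicate 1, refits that leave 1 library in a group. SERPING1 stood at 8.08 and 4.19 CPM in the scrambled libraries and 9.999 and 12.0 CPM with the UAB peptide. Both UAB libraries lay above both scrambled ones, and the log2 fold change of 0.84 ± 0.265 was not called (edgeR adjusted p = 0.0572). It was called with no count filter (edgeR adjusted p 0.00435), with limma-voom (adjusted p 0.0407), with the replicate block and with the crossed block chosen after seeing the data. Over 13 alternatives its values ran from 0.44 to 1.39, among them refits that leave 1 library in a group.

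None of the 3 membrane inhibitors was called in OVCAR3. CD46 was at 213 and 230.4 CPM against 247 and 199 (log2 fold change 0.01, 95% interval -0.29 to 0.31, edgeR adjusted p = 0.978). CD55 was at 50.1 and 50.5 CPM against 39.2 and 42.8 (log2 fold change -0.29, 95% interval -0.587 to -0.000765, edgeR adjusted p = 0.196). Of 13 alternatives 1 called it, a block with crossed replicate numbers that was chosen after seeing the data (edgeR adjusted p 0.0178). For CD59 the levels were 113 and 104 CPM against 95.4 and 94.5 (log2 fold change -0.19, 95% interval -0.47 to 0.09, edgeR adjusted p = 0.389). The CD46 groups overlapped, whereas both UAB libraries were below both scrambled ones for CD55 and CD59. With 2 libraries per group, a lack of overlap carries little weight for any gene of this line. Its share over all genes is not given.

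**Figure D3:**
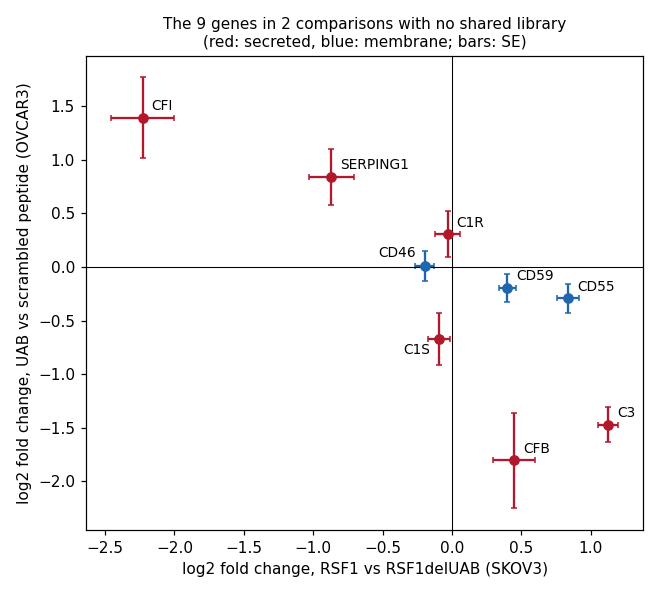
Log2 fold change of full-length RSF1 against RSF1delUAB in SKOV3 (horizontal axis) and of the UAB peptide against the scrambled peptide in OVCAR3 (vertical axis) for the 9 genes, with bars for SE. C3 and CFB lie at the lower right and CFI at the upper left, and 8 of the 9 genes have opposite signs on the axes.

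The comparison of RSF1 with RSF1delUAB and the peptide comparison share no library. The sign of the log2 fold change was opposite in them for 8 of the 9 genes, all but C1S, beside 54.0% of the 15004 genes tested in both lines. C3, CFB and CFI were called in both, each with opposite signs, as were 558 of the 908 genes called in both (61.5%). Genes are not independent replicates, and the sign of a gene that was not called carries little weight. C1R and CD46 changed sign in at least 1 alternative in 1 of these comparisons, each at a value near 0.

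The genes around each member were read in the same comparisons. For C3, C1R, C1S and SERPING1 the tested genes within 5 Mb had median log2 fold changes between -0.11 and 0.07 in both construct comparisons, far from the 2.79 to 4.69 of the genes themselves. Around CFB the median of 211 neighbours was 0.45 with RSF1 and 0.44 with RSF1delUAB, and CFB exceeded it by 2.12 and 1.69. CFI rose among neighbours that were lower, with medians of -0.81 and -0.90 over 37 genes. CD46 and CD55 lie close together on chromosome 1, in a stretch whose medians were -0.69 and -0.81 with RSF1 and -0.66 and -0.68 with RSF1delUAB. CD46 was thus above its neighbours by 0.44 and 0.61, and CD55 was above them by 0.67 with RSF1 and below them by 0.30 with RSF1delUAB (member minus neighbours -0.30). CD59 was below the medians of its 38 neighbours, which were 0.25 and 0.34. Between RSF1 and RSF1delUAB every neighbour median was within -0.13 to 0.06, whereas CFI was at -2.23 and CD55 at 0.84. The part of copy number in these levels was not tested.

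**Figure D4:**
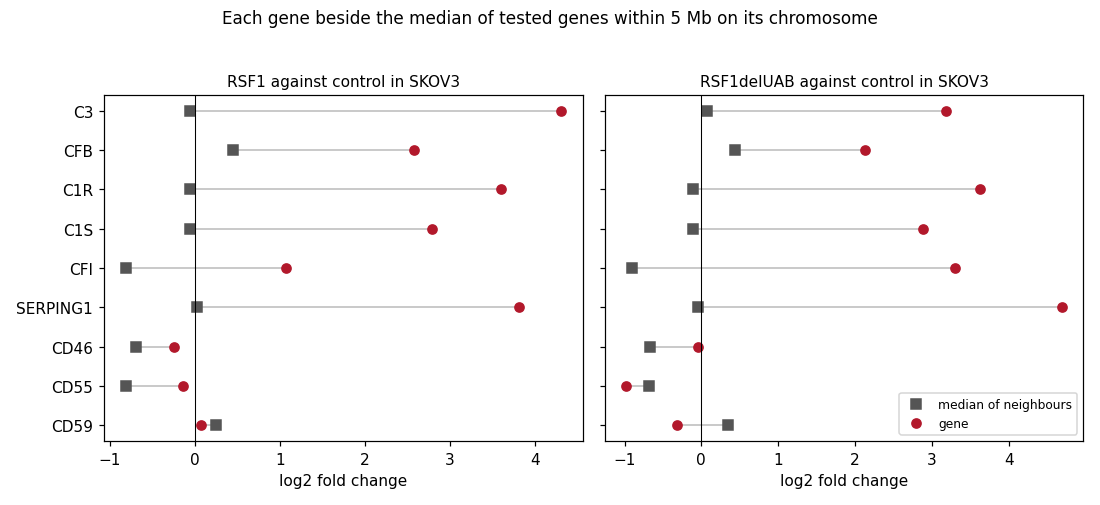
Log2 fold change against the control (horizontal axes) of each gene (red circles) and the median of tested genes within 5 Mb (grey squares) for RSF1 and RSF1delUAB in SKOV3. The secreted genes lie right of their neighbours in both panels, and the neighbours of CFI, CD46 and CD55 lie left of 0.

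Per kilobase of the deposited gene length, the order of the levels changed with the constructs. That length, 15505 bases for CD46, 10254 for CD55 and 11577 for C3, can differ from that of the transcripts present. Ranks of different genes depend on it. In the SKOV3 controls CD46 (20.2 CPM per kb) and CD59 (17.4) were the highest, followed by C3 (9.63) and CD55 (6.87), and the other 5 genes were under 1. With RSF1, C3 came first at 191 CPM per kb, then CD59 at 18.3 and CD46 at 17.04, whose libraries overlapped, then C1R at 8.85. With RSF1delUAB, C3 was at 87.6 CPM per kb, ahead of CD46 at 19.5 and CD59 at 13.9. In the scrambled OVCAR3 cells C3 was already first at 42.6 CPM per kb, above CD46 at 14.3. With the UAB peptide C3 and CD46 were at 15.4 and 14.4 CPM per kb and their libraries overlapped. CFI, CFB and SERPING1 were the 3 lowest genes in every SKOV3 group and in the scrambled OVCAR3 cells, at 1.90 CPM per kb or less.

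Markers of other cell types were counted beside these genes. The liver is the main source of complement, and the summed level of 9 hepatocyte markers was 0.160 to 1.06 CPM in SKOV3 and 0.994 to 2.46 CPM in OVCAR3, with APOA2 at 0 in all libraries. Fibroblast markers, like the secreted genes, were higher in SKOV3 with both constructs than with the control. Their sum over 9 genes was 6.42 to 8.03 CPM in the controls, 53.3 to 55.3 with RSF1 and 122 to 133 with RSF1delUAB, and all 6 tested were called higher with RSF1 and 5 of 6 with RSF1delUAB, beside 34.3% and 34.5% of all genes. LUM, a matrix proteoglycan, was the main part of that sum with RSF1delUAB, at 77.1 to 86.4 CPM. PDGFRB, a receptor of fibroblasts and pericytes, had 0 counts in all control and RSF1delUAB libraries. COL3A1 and FAP were also too low to be tested. Between RSF1 and RSF1delUAB, 4 of the 6 tested markers were called lower and 0 higher, beside 20.2% and 18.5% of all genes. In that comparison C3 and CFB were higher, CFI and SERPING1 lower, and C1R and C1S not called. In OVCAR3 the sum was 50.3 and 50.8 CPM in the scrambled libraries and 44.1 and 56.2 with the UAB peptide. Of 4 fibroblast markers tested there, 2 were called lower and 0 higher, beside 5.46% and 5.45% of all genes. COL1A2, a collagen chain, went from 13.3 and 12.2 to 4.51 and 5.35 CPM and LUM from 22 and 17 counts to 0 in both libraries. The other 2, COL1A1 (log2 fold change 0.25) and PDGFRB (0.31), were not called. Leukocyte and macrophage markers summed to 0.616 to 1.73 CPM in SKOV3, with AIF1 and TYROBP at 0. In OVCAR3 that sum was 7.10 and 8.34 CPM in the scrambled libraries and 2.45 and 1.69 with the UAB peptide, lower beside C3, and CD14 made up 5.22 and 7.39 CPM of the scrambled sums and 1.03 and 0.982 CPM of the UAB sums, with CD68 and CD163 at 0. The sum of 7 endothelial markers was 5.36 to 7.83 CPM in the SKOV3 controls, 0.739 to 1.13 with the constructs, 12.1 and 14.6 in the scrambled OVCAR3 libraries and 23.0 and 17.2 with the UAB peptide. The part of other cells in the results was not tested.

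The rest of the system was read from a list of 51 further complement genes, of which 15 were tested in SKOV3 and 14 in OVCAR3. With RSF1, 8 of the 15 were higher, 1 was lower and 6 were not called, with a median log2 fold change of 0.51, and the 9 called stand beside 67.3% of all genes (34.3% higher, 32.9% lower). With RSF1delUAB, 10 were higher, 2 lower and 3 not called, with a median of 0.93, beside 66.6% of all genes called (34.5% higher, 32.1% lower). Between RSF1 and RSF1delUAB, 3 were higher, 6 lower and 6 not called, with a median of -0.11, beside 38.6% of all genes called (18.5% higher, 20.2% lower). With the UAB peptide in OVCAR3, 1 of 14 was lower and 13 were not called, beside 10.9% of all genes called (5.46% lower). In all 13 libraries 13 genes of the list had 0 counts, which allows up to 0.128 to 0.199 CPM by library (3 counts, counting error only). They include the C1q chains C1QA, C1QB and C1QC, the mannose-binding lectin gene MBL2, the C4 regulator C4BPA and the receptors CR1 and VSIG4.

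C2, the protease of the classical C3 convertase and the neighbour of CFB, rose with both constructs. It stood at 0.265, 0.332 and 0.258 CPM in the controls, 3.19, 4.51 and 1.89 with RSF1 and 17.2, 16.3 and 16.6 with RSF1delUAB. The groups did not overlap, and the log2 fold changes were 3.45 ± 0.377 with RSF1 (edgeR adjusted p = 9.39e-08) and 5.83 ± 0.291 with RSF1delUAB (edgeR adjusted p = 6.49e-13). Against RSF1delUAB, C2 was 5.21-fold lower with RSF1 (log2 -2.38, edgeR adjusted p = 3.96e-09), while CFB beside it was higher with RSF1. C1RL, a protease-like relative of C1R that overlaps it, rose by 1.68 and 2.39 on the log2 scale with RSF1 and RSF1delUAB (edgeR adjusted p = 5.37e-12 and 1.24e-14) and was lower with RSF1 than with RSF1delUAB (-0.71, edgeR adjusted p = 7.54e-07). CFD, factor D, which cleaves factor B, rose by 1.33 and 1.71 (edgeR adjusted p = 8.89e-10 and 1.37e-11).

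THBD, thrombomodulin, which also promotes the inactivation of C3b, went the other way. It stood at 153, 157 and 153 CPM in the controls, 11.1, 12.2 and 11.8 with RSF1 and 6.97, 6.01 and 6.28 with RSF1delUAB. The log2 fold changes were -3.72 (edgeR adjusted p = 2.22e-18) and -4.58 (edgeR adjusted p = 2.95e-19), and THBD was higher with RSF1 than with RSF1delUAB by 0.86 (edgeR adjusted p = 1.01e-06). ITGB2, the shared chain of the iC3b receptors, was lower with RSF1delUAB (-1.26, edgeR adjusted p = 0.000531). C5, the start of the terminal route, rose over the control by 1.55 with RSF1 and 0.65 with RSF1delUAB (edgeR adjusted p = 1.53e-05 and 0.0356). C5 was higher with RSF1 than with RSF1delUAB by 0.89 (edgeR adjusted p = 0.00366). CLU, clusterin, an inhibitor of the terminal complex, also rose over the control, by 0.40 with RSF1 and 1.19 with RSF1delUAB (edgeR adjusted p = 0.00104 and 5.59e-10). CLU was lower with RSF1 than with RSF1delUAB (-0.79, edgeR adjusted p = 5.86e-07).

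In OVCAR3 the gene of the wider list that was called was MASP1, a protease of the lectin route. It had 16 and 18 counts in the scrambled libraries and 2 and 0 with the UAB peptide (edgeR adjusted p = 0.0220). The ratio of scrambled to UAB, scaled for depth, was 14.1 with a 95% counting interval of 3.63 to 122. C2 in the same libraries was at 0.983 and 0.778 CPM against 0.343 and 0.437 and was not called (log2 fold change -1.17, edgeR adjusted p = 0.230).

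**Figure D5:**
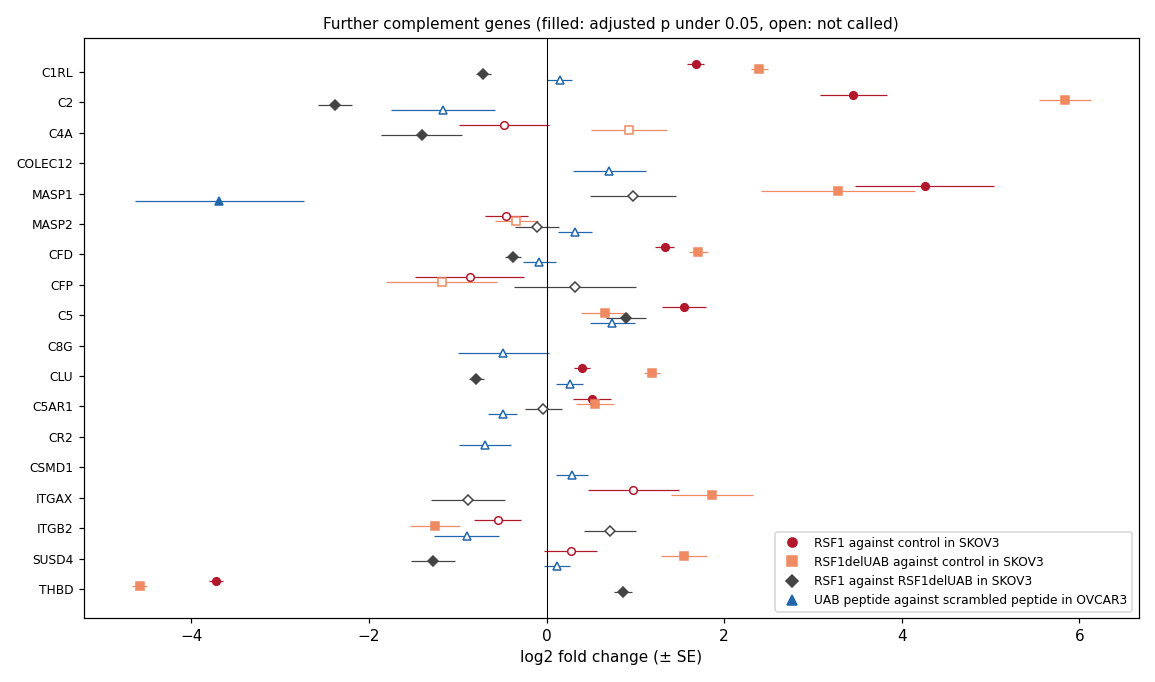
Log2 fold changes (horizontal axis, bars for SE) of 18 further complement genes tested in either line, with filled symbols for an edgeR adjusted p under 0.05. C2 reaches 5.83 with RSF1delUAB and THBD -4.58, and the points of MASP1 rest on 2 counts in the SKOV3 control group and 2 in the OVCAR3 UAB group.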

How the data were processed

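Poly-A RNA of 13 libraries was sequenced, 9 of SKOV3 and 4 of OVCAR3. The deposited values are raw read counts per gene as whole numbers, with 1 table for each line. Per the submitters' processing notes the tools were FastQC, STAR 2.7.9a and Subread, and the builds named are GRCh38, hg38 and GRCm38. Strand setting and annotation release: not given in the sources used here. Of 62703 human gene identifiers 62625 had a symbol, and 1 record (ANK2) split over 3 lines was rejoined. Groups came from the labels, and the column read as OVCAR3 control replicate 2 holds a letter of unknown meaning.

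Each line was fitted alone, with all its groups, in edgeR 4.0.16 (R 4.3.3, limma 3.58.1) after filterByExpr (minimum count 10) and TMM scaling, by the quasi-likelihood test. Benjamini-Hochberg adjustment ran over all tested genes of a comparison, and genes were called under 0.05. In SKOV3 16735 genes were tested, with 6 residual degrees of freedom and a biological coefficient of variation of 0.0734, and in OVCAR3 18359, with 2 and 0.124. The prior count of fold changes was 0.125. The fit was tested on simulated data. CPM are scaled by TMM on tested genes within a line, so levels of the 2 lines are set side by side without a test. Promoters and gene starts are from RefSeq (GRCh38.p14), and 6 of the 9 genes matched that table.

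The members and lists were chosen with earlier results of these data known. All 9 members are named, and of the wider list up to 3 higher and 3 lower called genes with the smallest adjusted p in each comparison, besides genes at 0 and C2 in OVCAR3, named after their values were seen. A gene that the rule takes is not reported here. For C3, CFB and CD55 the 3 most alike genes in SKOV3 are named. Alternatives were other scalings, other count filters, DESeq2 1.42.0, limma-voom, the compared groups alone, a block for the replicate number and leaving out each replicate. In OVCAR3 leaving out a replicate leaves 1 library in a group, so those refits carry little weight.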

Additional observations from a re-analysis of the deposited data

How the results depend on the processing

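The limits are few libraries per group and low counts of CFI, CFB and SERPING1 in some groups. Of 521 recomputed log2 fold changes of the 9 genes, 486 kept direction and side of 0.05, 16 lost the call, 13 gained it and 6 changed sign. The sign changes were those of C1R between RSF1 and RSF1delUAB (0.0073 with upper-quartile scaling, and -0.12 to 0.031 when leaving out 1 replicate, above 0 without RSF1 replicate 2 or 3 or RSF1delUAB replicate 1) and of CD46 in OVCAR3 (-0.15 to 0.16, below 0 without scrambled or UAB replicate 1), none of them called. In OVCAR3, 3 of the 9 genes were called, 5 with no count filter and 1 with DESeq2. The cause was not tested. In SKOV3, leaving out 1 replicate gave 7 to 8 called members for RSF1 against control, 8 in each case for RSF1delUAB against control and 5 to 7 between the constructs. In the main fits 67.3%, 66.6% and 38.6% of all genes were called in these comparisons and 10.9% in OVCAR3. Shares over all genes under these other settings and the SKOV3 replicate block are not given. The counts are therefore no result about the members. In SKOV3 same-numbered libraries correlated at -0.04 to 0.07 in their deviations from group means, and differently numbered ones at -0.08 to 0.04. Whether the number marks a shared batch was not tested. The replicate block left 7, 8 and 7 members called in that line. In OVCAR3 the same-number correlation was -0.15, which with 2 libraries per group is by construction the mirror of the 0.15 of crossed pairs. The replicate block called 4 members, SERPING1 being the added gene, and 1770 genes against 2004 without it, and a block with crossed numbers, chosen after seeing the data, called 6 members (C1S, SERPING1 and CD55 being added) and 5097 genes. With library totals in place of TMM, 3 of 45 group levels moved by more than 1 SD, and all by -2.69% to 1.48%.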

Other observations

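For C3, CFB and CD55 the genes with the most similar profile over the 9 SKOV3 libraries were read from 10937 tested genes. The libraries fall into 3 groups that the genes share, so these coefficients describe group differences and carry no test. Closest to C3 were ARAP1 (Pearson r = 0.999), LOX (0.998), a collagen cross-linking enzyme, and FN1 (0.998), fibronectin, and 840 genes exceeded an r of 0.95 with it. CFB was most alike KCTD18 (0.997), BCAT1 (0.996), an enzyme of branched-chain amino acid breakdown, and COL27A1 (0.996), a collagen chain, with 816 genes above 0.95. For CD55, which was lowest with RSF1delUAB, CDV3 (0.996), EBNA1BP2 (0.994) and COQ3 (0.991) were closest, and 122 genes exceeded 0.95.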
